A study of Mus musculus with 24 samples.

Results

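The DNA replication machinery was followed as 44 genes whose products license origins, unwind and copy DNA, and restore chromatin behind the fork. The members were fixed by name, and every probe annotated with one of those names was taken, 57 probes in all among 39429 gene probes on the array. The data came from 24 one-colour arrays of mouse CD8+ OT-I T cells, which carry a T cell receptor for an ovalbumin peptide. Of the 44 genes, 34 had a probe that passed the signal filter and were tested among 9513 genes.

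Each day 4 group held 5 arrays, of cells recovered from blood, liver, lung or small intestine 4 days after transplantation, and was set against 4 arrays of the graft on day 0, whose cells the series calls naive. Recipients were of the m-act OVA transgenic strain on the C57Bl/6 background, in which the CAG promoter drives ovalbumin in the tissues. They were given 11 Gy of total body irradiation as 2 doses of 5.5 Gy, followed by bone marrow cells and splenocytes of OT-I donors (C57BL/6-Tg(TcraTcrb) 1100Mjb/J), and developed lethal acute graft-versus-host disease. Mice were female and 8 to 16 weeks old. The OT-I CD8+ T cells alone carried CD45.1, whereas all other graft cells and the recipients carried CD45.2, and magnetic selection on CD45.1 was used for every group, the graft included. In this model ovalbumin is the antigen that separates donor cells from the host, and all OT-I T cells share 1 transgenic receptor. Whether each array came from a separate mouse is given in no source used here, and the p-values therefore describe the spread among these arrays, which may be technical. In such bulk samples, fewer cells that express a gene and less RNA of it per cell cannot be told apart.

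A resting T cell is out of the cell cycle, and its origins of replication are not licensed. After antigen recognition a CD8+ T cell enters the cycle, loads pairs of MCM helicases onto origins marked by the origin recognition complex, and then fires them with kinases that recruit Cdc45 and GINS. Many of these genes are transcribed under E2F factors, which pocket proteins of the retinoblastoma family hold in check.

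Levels are given as log2 of the processed spot signal minus the 75th percentile of gene probes on the same array, so a level of 0 lies at that percentile and a difference of 1 is 2-fold. Between 22.6% and 38.6% of gene probes were well above background on an array, and the number of arrays limits the precision. Differences were tested with limma over all 24 arrays, and calls were made below 0.05 after Benjamini-Hochberg adjustment over the 9513 genes. All graft arrays shared 1 slide and 1 scan that held no other group, so graft and slide cannot be told apart. The 20 day 4 arrays lay on 5 other slides, each with 1 array of every site. Of 6 T cell markers, 5 or 6 were above background in each group. The summed signal of 10 B cell markers was 2.83 to 18.8 times the array's 75th percentile on day 4 arrays and 240.2 to 299 times on graft arrays, that of 12 neutrophil and monocyte markers 114 to 386 on day 4 arrays and 479 to 690.2 on graft arrays, and that of the 8 measured erythroid markers 1.25 to 69.3 on day 4 arrays and 11.1 to 299 on graft arrays. The 8 dendritic cell and MHC class II markers summed to 30.2 to 331 on day 4 arrays and 244 to 279 on graft arrays, the 5 NK cell markers to 3.31 to 57.1 on day 4 arrays and 21.2 to 33.1 on graft arrays, and the 6 T cell markers to 90.2 to 352 on day 4 arrays and 117 to 224 on graft arrays. The 6 hepatocyte markers summed to 1.42 to 3.60 on day 4 arrays and 2.21 to 2.71 on graft arrays, the 5 lung epithelial markers to 0.77 to 147 on day 4 arrays and 1.97 to 2.25 on graft arrays, and the 8 intestinal epithelial markers to 0.98 to 328 on day 4 arrays and 3.22 to 6.35 on graft arrays. The defining markers Pax5, Klf1, Alb, Ttr, Cps1, Cldn18, Lgr5 and Olfm4 were above background on no array. The part of other cell types in the differences from the graft was not tested.

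Replication genes stood higher in cells recovered on day 4 than in the graft. Of the 34 tested members, 27 rose, 2 fell and 5 were not called, where 34.4% of all genes tested were called higher and 19.2% lower. The median log2 difference between day 4, as the mean of the 4 sites, and graft was 1.80 over the 34 members and 0.23 over all tested genes. Each array's median over the members ran from 3.50 to 3.88 in blood, 3.15 to 3.96 in liver, 2.45 to 3.67 in lung and 2.32 to 3.26 in intestine, against 1.31 to 1.72 in the graft. All 20 day 4 arrays thus lay above the 4 graft arrays. For 19 of the 34 members, every day 4 array exceeded every graft array, which held for 11.0% of all tested genes. Among the 19 were Gmnn, Mcm2, Gins1, Pola1 and Pole, which were above background on no graft array. For them, and in the medians that include them, a difference was to some extent built in by the filter described below.

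**Figure D1:**
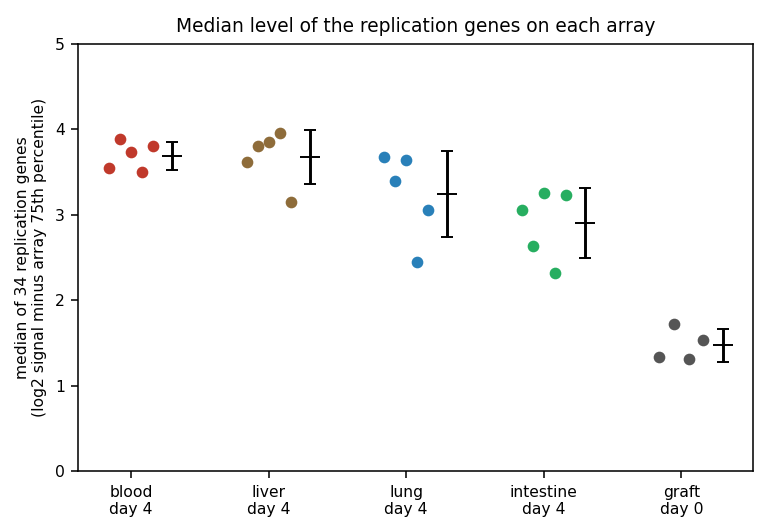
The vertical axis gives, for each array, the median over the 34 tested replication genes of the log2 signal minus the array's 75th percentile. The 34 include 8 that passed the signal filter only through a day 4 group. Points are arrays by group, and the bar beside each group is its mean ± SD; all day 4 arrays lie above the graft arrays, whose highest value is 1.72, and the lowest day 4 array is intestine 4 at 2.32.

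The filter kept a probe that was well above background on all arrays, or all but 1, of at least 1 group. It admitted 8 members, among them Mcm2 and Gmnn, only through a day 4 group, and for such genes a difference was to some extent built in. The other 26 were above background on all 4 graft arrays, and of these 20 rose and 2 fell. The share of all genes with such graft signal that rose is not given here. Alternative settings moved the median of all tested genes between -0.39 and 0.41, and the members' median between 1.18 and 1.96. Under a filter on all 24 arrays, which tested only 24 members, 20 were called higher and 1 lower. In that fit 40.3% of 4762 genes were called higher and 11.4% lower. Under the other alternatives 24 to 29 members were called higher. The 24 came with the median of detected probes and with Cd3 centring, where 16% and 18.8% of all tested genes were called higher. The 29 came with no signal filter, which tested all 44 members, and with array weights. Of all genes in those fits, 13.3% and 43.6% were called higher. Without lung 4 and intestine 4, which read low for several members, 27 were called higher, where 38.1% of all tested genes were. The balance of calls over all genes moved with the background correction and the scaling. Calls of higher level made up 64.2% of all calls in the main scaling, 71% after normexp background correction, 50.2% after quantile normalisation and in the authors' deposited log2 table, 40.8% with the 75th percentile and 32.6% with the median of detected probes, and 34.3% after centring on Cd3 genes.

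The promoters of several of these genes hold the letters that E2F factors are known to bind, and those of 6 members among the 2 with the smallest adjusted p in their functional group are shown because most of these genes rose together, beside that of Gins3, which fell. The letters TTTCCCGC, TTTCGCGC, TTTGCCGC and TTTGGCGC were searched on both strands, from 250 bases before to 50 after each start in the RefSeq promoter table (GRCm38.p6). The table held 36 of the 44 members, and 14 of these had a promoter with at least 1 of the 4 words, against 2.6% of all 27025 genes and 4.74% of the 7300 tested genes in the table. Capitals mark the words, read from the gene's own strand or its complement, and words on opposite strands can overlap. A further word of Mcm7 lies past its start, and Lig1 has a word in 1 of its 3 promoters.
Orc3, chr4:34614943-34615192, minus strand, the 250 bases before the start: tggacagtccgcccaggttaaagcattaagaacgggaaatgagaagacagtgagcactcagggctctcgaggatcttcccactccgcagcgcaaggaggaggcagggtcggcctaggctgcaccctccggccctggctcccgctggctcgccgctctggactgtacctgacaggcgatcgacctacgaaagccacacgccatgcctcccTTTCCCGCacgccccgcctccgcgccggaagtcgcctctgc
Mcm7, chr5:138171884-138172133, minus strand, the 250 bases before the start: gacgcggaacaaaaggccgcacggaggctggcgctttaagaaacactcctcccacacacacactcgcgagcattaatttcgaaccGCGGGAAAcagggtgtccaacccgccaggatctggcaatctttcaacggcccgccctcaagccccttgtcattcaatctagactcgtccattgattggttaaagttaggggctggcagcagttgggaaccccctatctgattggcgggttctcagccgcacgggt
Pola1, chrX:93632156-93632405, minus strand, the 250 bases before the start: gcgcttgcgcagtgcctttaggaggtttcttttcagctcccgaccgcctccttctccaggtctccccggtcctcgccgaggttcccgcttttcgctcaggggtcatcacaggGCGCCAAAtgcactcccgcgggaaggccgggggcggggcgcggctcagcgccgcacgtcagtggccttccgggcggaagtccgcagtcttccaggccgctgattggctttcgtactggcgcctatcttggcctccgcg
Gins3, chr8:95633309-95633558, plus strand, the 250 bases before the start: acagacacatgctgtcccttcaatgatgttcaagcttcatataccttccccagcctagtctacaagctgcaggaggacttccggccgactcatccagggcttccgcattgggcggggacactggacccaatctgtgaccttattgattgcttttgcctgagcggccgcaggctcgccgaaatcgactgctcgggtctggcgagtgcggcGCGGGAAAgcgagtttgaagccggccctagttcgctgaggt
Cdt1, chr8:122568035-122568064, plus strand, bases 21 to 50 after the start: gggaactaccttTTTGGCGCcatggcgcaa
Pold1, chr7:44548766-44548795, minus strand, bases 21 to 50 after the start: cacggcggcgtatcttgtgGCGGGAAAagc
Lig1, chr7:13278841-13278870, plus strand, bases 16 to 45 after the start: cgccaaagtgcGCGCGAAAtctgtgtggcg

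Of these 7 genes, Orc3, Mcm7, Pola1, Cdt1 and Pold1 rose at day 4, Lig1 was not called and Gins3 fell, so the words were found in members of each kind. Mcm2, Pcna and Rpa2 held none of the 4 words in this window. The word TTTGAA, the core of the element bound by cell cycle repressor complexes, was found in 8 of the 36 members and 20.23% of all genes in the table. CCAAT, the site of NF-Y, was found in 22 of 36 members and 41.06% of all genes. A match is a description of these letters only.

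Origin recognition and licensing genes rose where they could be measured. Orc6, a subunit of the origin recognition complex, read 3.33, 4.17 and 4.89 (lowest, median and highest) on the 20 day 4 arrays, against 0.70, 1.77, 1.31 and 0.90 on the 4 graft arrays. The groups did not overlap, and the difference was 2.93 ± 0.22 (limma log2 difference ± SE, n = 20 and 4, as for all values below), a 7.61-fold change with an adjusted p of 7.08e-10. Orc3, another subunit of the complex, had -0.11, 2.18 and 3.34 on day 4 arrays and 0.61, -0.21, 0.27 and 0.88 on graft arrays, and rose by 1.72 ± 0.37 (adjusted p = 0.000446), with 18 of 20 day 4 arrays above every graft array. A second Orc3 probe, 471 bases further downstream, was above background on no array. Cdt1, which brings the MCM complex to origins, had 3.03, 4.06 and 4.75 on day 4 arrays, against 2.90, 2.80, 2.95 and 2.90 in the graft, and rose by 1.17 ± 0.19 (adjusted p = 2.56e-05). Its call was lost with the median of detected probes as scale (0.60, adjusted p = 0.0861) and with centring on Cd3 genes (0.55, adjusted p = 0.0553).

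Gmnn encodes geminin, which binds Cdt1 and keeps origins from being licensed a second time in the same cycle. It read -1.32, 1.84 and 2.61 on day 4 arrays and was well above background on 18 of the 20. On the graft arrays it read -2.47, -2.68, -3.17 and -2.45, never above background, so day 4 arrays stood at least 4.75-fold higher (limma adjusted p = 1.85e-08). A bound of this kind sets the mean of the brighter group against the lowest signal that counted as well above background on each dim array. Arrays of the brighter group that were at background enter at their own signal, and the bound carries no error. A second probe annotated to Gmnn, on the opposite strand, was above background on no array.

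All 6 subunits of the MCM2-7 helicase, the motor that unwinds DNA, rose at day 4. Mcm2 had -1.24, 2.33 and 3.50 on day 4 arrays, while its -2.50, -2.70, -3.24 and -2.60 on graft arrays were all at background. It was at least 7.58-fold higher at day 4 (limma adjusted p = 1.3e-08). Mcm7 read 3.57, 5.24 and 5.88 at day 4, against 1.52, 2.63, 1.75 and 2.45 in the graft, a rise of 2.99 ± 0.25 or 7.93-fold (adjusted p = 3.1e-09). Mcm3, Mcm4, Mcm5 and Mcm6 rose by 1.97, 1.74, 2.07 and 2.18, each with 19 or 20 of 20 day 4 arrays above the graft and a SE from 0.21 to 0.26. These 4 subunits and Mcm7 were above background on every graft array. Mcm3 was measured by a pair of overlapping probes, and the one not used for the gene gave 2.87 ± 0.28.

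**Figure D2:**
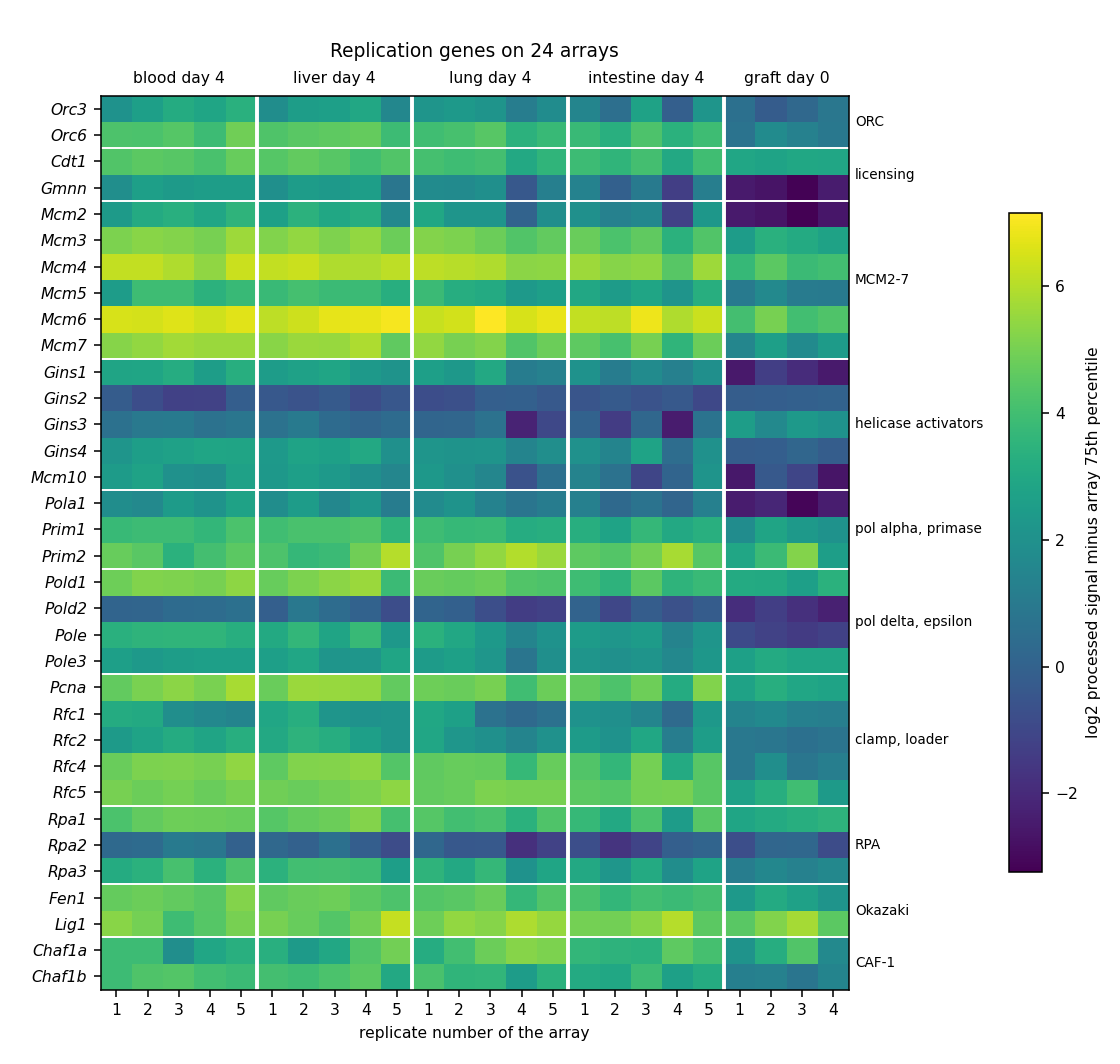
Colour gives the log2 signal minus the array's 75th percentile for the 34 tested replication genes (vertical axis, by functional group) on each array (horizontal axis, replicate numbers within group). Most rows are brighter on the day 4 arrays than on the graft arrays at right, with Gins3 as the main exception, while Lig1, Prim2 and Chaf1a vary between arrays of 1 group.

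Helicase activators did not move as a block. Gins1, a subunit of the GINS complex that joins MCM2-7 and Cdc45 in the active helicase, had 1.12, 2.43 and 3.29 on day 4 arrays. On graft arrays it read -2.53, -1.32, -1.93 and -2.50, all at background, so it was at least 8.01-fold higher at day 4 (limma adjusted p = 7.02e-11). Gins4, its partner, read 0.49, 2.17 and 3.03 at day 4 against -0.17, -0.15, 0.18 and -0.18 in the graft and rose by 2.30 ± 0.26, or 4.93-fold (adjusted p = 2.16e-07). Gins3 went the other way. It read -2.45, 0.38 and 1.04 on day 4 arrays and 2.53, 1.64, 2.34 and 2.07 on graft arrays, and fell by 2.06 ± 0.43 (adjusted p = 0.000389). Every day 4 array was below every graft array, and the lowest values were those of lung 4 and intestine 4. Gins2 was not called, with -1.25, -0.46 and -0.04 on day 4 arrays, -0.18, -0.14, -0.06 and 0.02 on graft arrays and a difference of -0.44 ± 0.20 (adjusted p = 0.065). Under 8 of the alternatives Gins2 was called lower, with an adjusted p as low as 0.00141 for the median of detected probes. Mcm10, which helps to start the loaded helicase, was above background on 18 of 20 day 4 arrays and 1 of 4 graft arrays. It read -1.07, 1.94 and 2.75 on day 4 arrays and -2.55, -0.33, -1.07 and -2.64 on graft arrays, and was called higher (adjusted p = 8.02e-06) with a fitted difference of 3.23 ± 0.48 that rests largely on background signal in the graft.

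Polymerase alpha with primase begins each new strand. Its catalytic subunit Pola1 read 0.14, 1.61 and 2.77 on day 4 arrays and -2.46, -2.12, -3.10 and -2.42 on graft arrays, where it was never above background. It was at least 4.78-fold higher at day 4 (limma adjusted p = 1.1e-10). Prim1, which makes the RNA primer, had 2.79, 3.73 and 4.27 at day 4 against 1.80, 2.83, 2.38 and 2.06 in the graft, a rise of 1.40 ± 0.20 or 2.64-fold (adjusted p = 3.67e-06). Intestine 2 was the one day 4 array that did not exceed every graft array.

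Prim2, the large primase subunit, was looked at by probe after its values were seen, since its 2 probes, 25179 bases apart on chromosome 1 (mm9), gave different pictures. The AK166687 probe (chr1:33535912-33535971) stood for the gene and read 3.38, 4.55 and 5.99 on day 4 arrays, against 2.89, 3.83, 5.22 and 2.57 in the graft, a difference of 1.09 ± 0.41 (adjusted p = 0.0299) that lost its call under 11 alternatives, with graft 1 (0.84, adjusted p = 0.141), graft 2 (1.16, adjusted p = 0.0511) or graft 4 (0.74, adjusted p = 0.182) left out among them. The other (NM_008922, chr1:33510733-33510792) was at background on all 4 graft arrays and read 0.04, 1.97 and 3.22 on day 4 arrays, at least 6.02-fold higher (limma adjusted p = 6.63e-09). A stretch of 30 bases of each is shown because a run of G, in capitals, is present in the AK166687 probe alone.
Prim2, AK166687 probe, bases 22 to 51: tctctaagaaaaaGGGGGatagccaggcag
Prim2, NM_008922 probe, bases 16 to 45: ctattgaaactgttaaaatcctcaagcagc

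The replicative polymerases rose in their catalytic subunits. Pole, the catalytic subunit of the leading-strand polymerase epsilon, read 1.39, 2.91 and 3.75 on day 4 arrays and -0.90, -1.19, -1.44 and -1.22 on graft arrays, where it was never above background. It was at least 11.3-fold higher at day 4 (limma adjusted p = 1.75e-10). Of its other 2 probes, both upstream, 1 was above background on 11 day 4 arrays and 1 on none. Pold1, the catalytic subunit of polymerase delta, had 3.46, 4.77 and 5.60 at day 4 against 3.12, 3.06, 2.61 and 3.38 in the graft and rose by 1.57 ± 0.24, or 2.98-fold (adjusted p = 8.46e-06). Pold2, the accessory subunit of polymerase delta, read -1.33, 0.00 and 0.92 at day 4, above background on 13 of 20 arrays, and -1.86, -1.30, -1.81 and -2.30 in the graft, above background on none. The bound on the rise was 1.47-fold (limma adjusted p of the fitted difference = 2.72e-05). It is not a strict minimum, since the day 4 arrays at background entered at their own signal. Pole3, a small histone-fold subunit of polymerase epsilon that also serves in a chromatin remodelling complex, fell by 0.59 ± 0.23 (adjusted p = 0.0353), with 0.81, 2.33 and 2.90 on day 4 arrays and 2.65, 3.12, 2.88 and 2.88 on graft arrays. That call was lost under 8 alternatives, with an adjusted p up to 0.24, among them each of graft 2, 3 and 4 left out. Its value rests on a probe to a transcript model, since the RefSeq probe was above background on no array.

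Pcna, the sliding clamp that holds polymerases on DNA, rose by 1.94 ± 0.28 (adjusted p = 3.94e-06), and 19 of 20 day 4 arrays lay above the graft. The clamp is opened by replication factor C. Rfc4, a small subunit of that loader, had 3.12, 4.74 and 5.43 on day 4 arrays and 0.91, 1.88, 0.83 and 1.21 on graft arrays, a rise of 3.46 ± 0.27 or 11-fold (adjusted p = 8.99e-10). A further Rfc4 probe, 6958 bases upstream, gave 1.04 ± 0.20. Rfc5 read 4.42, 4.96 and 5.37 at day 4 against 2.71, 3.26, 3.96 and 2.44 in the graft and rose by 1.79 ± 0.20 (adjusted p = 1.56e-07). Rfc2 rose by 1.75 ± 0.27 with all 20 day 4 arrays above the graft. Rfc1, the large subunit, was not called, at 0.30, 2.05 and 3.29 on day 4 arrays, 1.44, 1.68, 1.27 and 1.22 on graft arrays and a difference of 0.55 ± 0.42 (adjusted p = 0.274). Its day 4 arrays fell on both sides of the graft, 13 above and 4 below all graft arrays.

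Replication protein A coats single-stranded DNA. Rpa3, its smallest subunit, had 1.86, 3.28 and 4.26 on day 4 arrays and 1.15, 1.56, 1.32 and 1.62 on graft arrays, and rose by 1.81 ± 0.29, or 3.51-fold (adjusted p = 1.82e-05). Rpa1, the large subunit, read 2.52, 4.35 and 5.23 at day 4 against 2.86, 3.09, 3.27 and 3.48 in the graft and rose by 1.07 ± 0.27 (adjusted p = 0.00206), although intestine 4 lay below every graft array. The Rpa1 call was lost under 3 scalings, with values from 0.45 to 0.66 and an adjusted p up to 0.262. A further Rpa1 probe, above background on 17 day 4 arrays and no graft array, gave at least 2.87-fold (limma adjusted p = 7.42e-06). Rpa2, the middle subunit, was above background on 14 of 20 day 4 arrays and 2 of 4 graft arrays, with -1.78, -0.05 and 1.01 at day 4, -0.75, 0.17, 0.21 and -0.83 in the graft and a difference of 0.07 ± 0.33 (adjusted p = 0.869).

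In lagging-strand maturation, Fen1, which trims the flaps of Okazaki fragments, read 3.65, 4.47 and 5.24 at day 4 against 2.34, 3.10, 2.71 and 2.16 in the graft and rose by 1.84 ± 0.19, or 3.57-fold (adjusted p = 7.43e-08). Lig1, the ligase that seals them, had 3.93, 5.00 and 6.24 on day 4 arrays, 4.48, 5.18, 5.76 and 4.53 on graft arrays and a difference of 0.10 ± 0.30 (adjusted p = 0.799). The groups overlapped, with 3 day 4 arrays above and 3 below all graft arrays. Chaf1b, a subunit of the chromatin assembly factor that deposits histones behind the fork, read 2.51, 3.86 and 4.52 at day 4 against 1.23, 1.32, 0.78 and 1.46 in the graft and rose by 2.46 ± 0.25, or 5.51-fold (adjusted p = 5.26e-08). The overlapping Chaf1b probe not used for the gene gave 1.74 ± 0.23. Chaf1a, the large subunit of the same factor, was not called, with 1.89, 3.76 and 5.26 at day 4, 2.09, 3.25, 4.35 and 1.63 in the graft and a difference of 0.95 ± 0.46 (adjusted p = 0.0866). Graft 3 was the highest graft array for Chaf1a, and without it the difference was 1.46 (adjusted p = 0.0171).

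**Figure D3:**
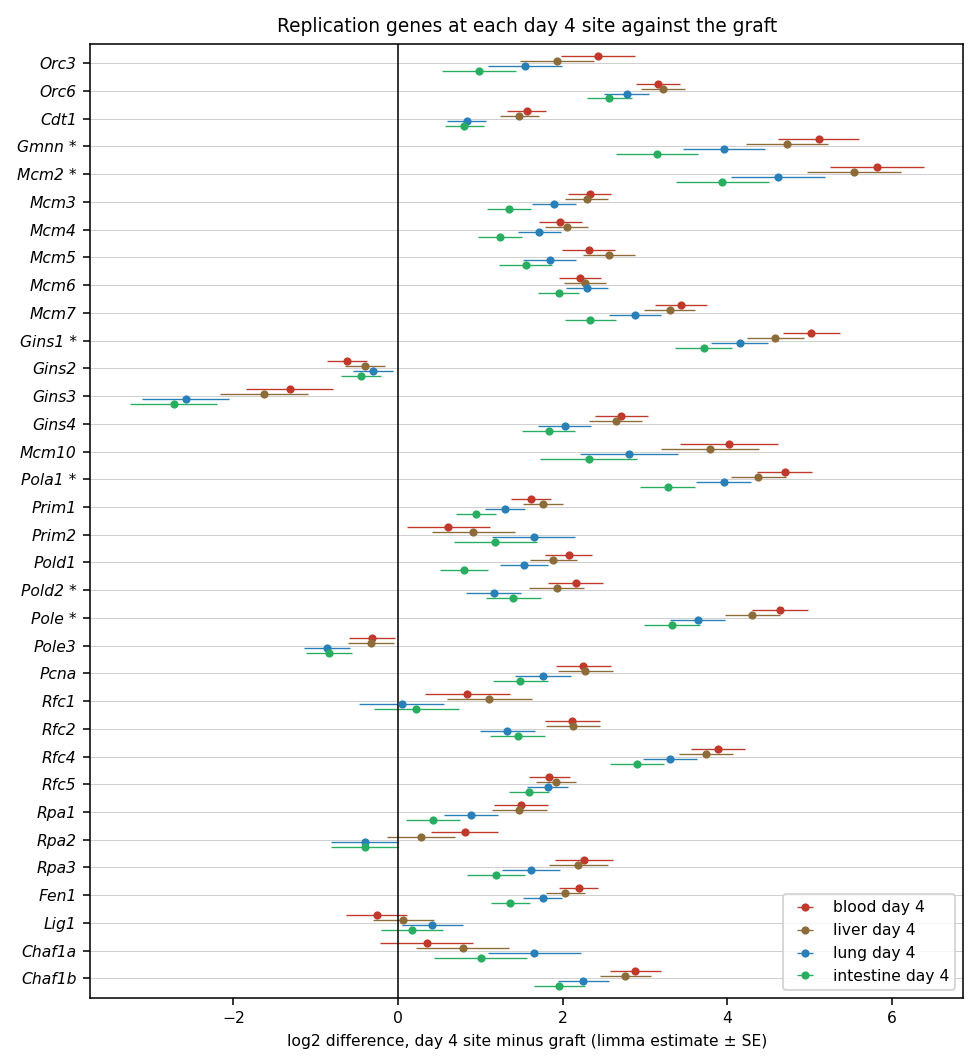
Points give the limma log2 difference from graft (horizontal axis, ± SE) of each tested replication gene (vertical axis) for blood, liver, lung and intestine at day 4. An asterisk marks the 6 genes above background on no graft array, whose plotted differences rest on background signal in the graft; most genes lie right of 0 at every site, and Gins3, Pole3 and Gins2 lie left of it at every site.

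The remaining 10 members failed the filter. Orc1, Orc2, Cdc7, Pola2 and Rfc3 were above background on none of the 24 arrays, so no level can be given for the origin firing kinase Cdc7 or for those subunits. Its partner Dbf4 passed on 3 day 4 arrays and 1 graft array. Cdc45 passed on 1 array, lung 2, at 2.08. Cdc6, which loads the helicase with Cdt1, was above background on 4 of 20 day 4 arrays, Pole2 on 6 and Top2a, the topoisomerase of mitotic chromosomes, on 4, and none of these 3 passed on any graft array. In a fit without the filter, over 24135 genes, their differences were 1.47 for Cdc6 (limma adjusted p = 0.0026), 1.26 for Pole2 (adjusted p = 0.0344) and 1.18 for Top2a (adjusted p = 0.0467), values that rest on background signal in the graft.

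Genes around the machinery were counted in lists written beside the members. Of 28 tested other replication factors among 40, 22 rose, 3 fell and 3 were not called, beside the 34.4% of all tested genes called higher and 19.2% called lower. Of these 28, 7 were above background on fewer than 3 graft arrays, so a difference was to some extent built in for them. Rif1 and Atad5, counted among the 22, were above background on no graft array. Their bounds were 0.76-fold and 0.94-fold, which do not show a rise. The smallest adjusted p were those of Dscc1, part of an alternative clamp loader, at least 3.59-fold higher (limma adjusted p = 2.72e-08), Uhrf1, which guides maintenance methylation, up by 2.36 ± 0.25, and the histone chaperone Asf1b, up by 2.71 ± 0.32. The 3 that fell were Pold4, the smallest subunit of polymerase delta, by 2.55 ± 0.37, Top2b, a topoisomerase that resting cells also make, by 0.88 ± 0.27, and Chtf8, named after its value was seen, by 0.55 ± 0.19. Of 13 E2F and pocket protein genes, 8 passed the filter and were called higher, but 4 of these, E2f3, E2f6, E2f8 and Tfdp1, were above background on 0, 0, 1 and 2 graft arrays, so a difference was to some extent built in. E2f7, which failed the filter, had a difference of -1.11 in the fit without it (limma adjusted p = 0.0017). E2f1 rose by 2.12 ± 0.22 with all 20 day 4 arrays above the graft, E2f6 rose at least 2.39-fold (limma adjusted p = 8.94e-07), and Tfdp1, the dimer partner of E2F proteins, had a fitted difference of 1.61 ± 0.21. Rb1 and Rbl1, which restrain E2F, were among the 8. Of 6 tested replication checkpoint genes among 10, only Cdc25a rose, by 1.53 ± 0.28. Rad17, a loader of the checkpoint clamp at stalled forks, and Rad1, a subunit of that clamp, fell by 1.10 ± 0.18 and 1.15 ± 0.19, and 3 were not called.

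Each site was also set against the graft, and these comparisons share the 4 graft arrays. Blood had 26 of 34 members called higher, liver 26, lung 28 and intestine 24, while 35.2%, 34.4%, 25.8% and 22.1% of all tested genes were. The 24 called higher in intestine were called higher at every site. The members' median difference from graft was 2.20 for blood, 2.09 for liver, 1.74 for lung and 1.38 for intestine, and that of all tested genes 0.28, 0.34, 0.18 and 0.09. With the median of detected probes as scale, the counts fell to 17 in lung and 14 in intestine.

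Among the 4 sites, intestine stood lowest. Its mean was the lowest of the 4 for 26 of 34 members, and for 36.15% of all tested genes. Blood had the highest mean for 21 members and 35.04% of all genes. Against blood, 17 members were lower in intestine and 0 higher, where 11.3% of all tested genes were called lower, and the median difference was -0.85 for the members and -0.23 for all genes. The moderated F-test over the 4 sites called 5 members, Pold1, Pola1, Pole, Gmnn and Mcm3, against 3.95% of all genes, with adjusted p from 0.0357 to 0.0499.

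Pold1 read 3.92, 3.46, 4.52, 3.53 and 3.79 on the 5 intestine arrays, against 4.86, 5.20, 5.13, 5.02 and 5.37 on the 5 blood arrays, without overlap. The difference was -1.27 ± 0.27 (limma adjusted p = 0.0119), and the liver and lung means were 4.93 and 4.58. Pola1 had 1.29, 0.30, 0.72, 0.14 and 1.27 in intestine and 1.84, 1.67, 2.47, 2.09 and 2.77 in blood, also apart, for a difference of -1.42 ± 0.32 (adjusted p = 0.0124). Its means were 1.85 in liver and 1.43 in lung. For Gmnn the intestine values were 1.38, -0.04, 1.03, -1.32 and 1.21 and the blood values 1.89, 2.61, 2.42, 2.56 and 2.56, a difference of -1.96 ± 0.47 (adjusted p = 0.0145). The arrays did not overlap, although the intestine values spread over more than the difference, with intestine 4 lowest. Pole read 2.45, 2.20, 2.46, 1.39 and 2.20 in intestine against 3.35, 3.52, 3.58, 3.55 and 3.28 in blood, lower by 1.32 ± 0.32 in intestine, and Mcm3 read 4.78, 4.23, 4.62, 3.41 and 4.35 in intestine against 5.10, 5.30, 5.22, 5.04 and 5.63 in blood, lower by 0.98 ± 0.25. Neither gene's groups overlapped. The other called members were Orc3, Cdt1, Mcm2, Mcm7, Gins1, Mcm10, Rfc4, Rpa1, Rpa2, Rpa3, Fen1 and Chaf1b, with differences from -0.76 to -1.87. Rpa2 was above background on all 5 blood arrays but on only 2 of the 5 intestine arrays. It passed the filter through blood and liver alone, so its lower intestine level was to some extent built in.

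Because every slide of day 4 arrays held 1 array of each site, the difference could be read within slides. The intestine array was below the blood array on all 5 slides for 22 of the 34 members and on 4 of 5 for another 8. The same count over all genes is not given here. By group means, intestine was below blood for 30 of the 34 members and 58.44% of all tested genes. Among the 17 called members the intestine array was below on 5 slides for 16 and on 4 for Rpa2. Those calls were made on the same arrays, so this count adds no separate support. With the slide as a fixed block 13 members were called lower in intestine, where 8.59% of all tested genes were. As a random block it was 21 members, where 15% of all tested genes were called lower.

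**Figure D4:**
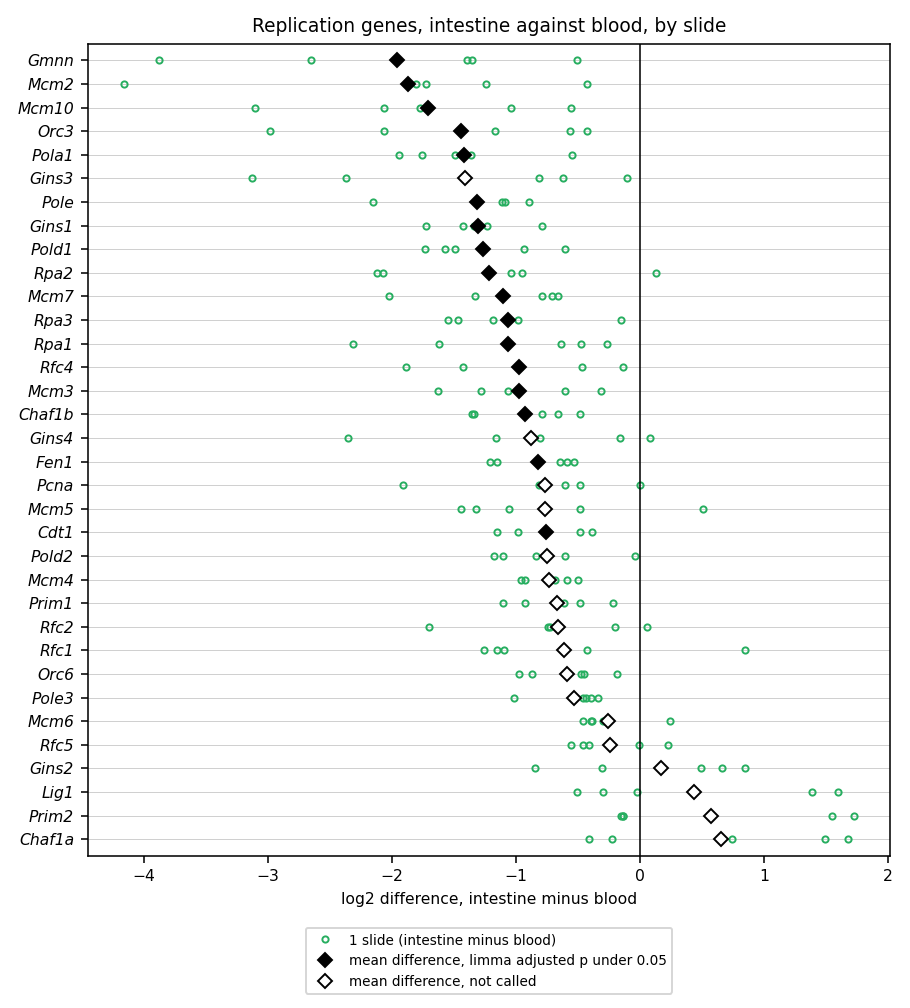
For each of the 34 tested replication genes (vertical axis), circles give intestine minus blood (log2, horizontal axis) on each of the 5 slides and diamonds the mean difference, filled where called. Most circles lie left of 0; Lig1, Prim2, Gins2 and Chaf1a have means right of 0.

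This count depended on the scaling and on single arrays, although no called member changed sign under any alternative run. It was 0 when arrays were scaled to the 75th percentile or to the median of detected probes. Of all tested genes, 1.34% and 0.0631% were then called lower. The count was also 0 when arrays were centred on Cd3d, Cd3e and Cd3g, where 0.357% of all tested genes were called lower. It was 3 when only the blood and intestine arrays entered the fit, where 1.25% of all tested genes were called lower. Without blood 2 or blood 3 the count was 7, without blood 4 it was 11 and without blood 5 it was 5. Without intestine 1 it was 10, without intestine 2 it was 4 and without intestine 4 it was 5. The shares of all genes called with single arrays left out are not given here. None of the 17 calls was kept in all alternatives. The members' median difference stayed negative, between -1.03 and -0.36, while that of all genes ran from -0.44 to 0.26. Of all genes called between intestine and blood, 13.5% were higher in intestine in the main scaling, 81.8% with the median of detected probes as scale, 58.5% after centring on Cd3 genes, 32.5% with the 75th percentile of detected probes without probes holding 4 or more G in a row, and 30.8% with array weights. The number called by the F-test went from 0 to 17 as single arrays were left out. In intestine, 5 of 8 intestinal epithelial markers were above background on at least 1 array and summed to 1.08 to 328 times the 75th percentile, against 0.98 to 2.76 in blood. The dendritic cell and MHC class II markers summed to 47.9 to 331 in intestine and 37.0 to 59.3 in blood, the NK cell markers to 3.51 to 46.9 in intestine and 3.31 to 7.71 in blood, the T cell markers to 90.2 to 352 in intestine and 189 to 295 in blood, and the mean level of the 3 Cd3 genes was 4.71 to 6.49 in intestine and 5.68 to 6.24 in blood. Their part in the difference was not tested.

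No member was called between any other 2 sites by limma. Between liver and blood, 0 members reached even an unadjusted p under 0.05, and 0.0% of all genes were called. Between lung and blood, 16 members had an unadjusted p under 0.05, of which 14 were lower in lung, and 1.44% of all genes were called. For lung against liver the number at an unadjusted p under 0.05 was 6, with 0.452% of all genes called. For intestine against liver it was 24, with 0.0% of all genes called, and for intestine against lung 3, with 0.378% called. The shares of all genes called are at the adjusted threshold, where no member was called. They are therefore not a background for the counts of members at an unadjusted p. The smallest adjusted p of a member was 0.0791 for lung against blood (Cdt1) and 0.11 for intestine against liver, a value shared by 7 members, Gmnn, Mcm3, Mcm5, Pola1, Prim1, Pold1 and Rpa1. The lung count became 7 against blood without lung 1 and 1 without intestine 4. The intestine count against liver became 11 without liver 5, 10 without intestine 3 and 13 without intestine 5. The members' medians were -0.59 for lung against blood, -0.81 for intestine against liver, -0.48 for lung against liver, -0.35 for intestine against lung and -0.07 for liver against blood.

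The 3 members that departed most from this order, Chaf1a, Prim2 and Lig1, had a run of G in their probes, a feature looked at after their values were seen. Chaf1a read 3.21, 4.02, 4.84, 5.26 and 5.09 in lung against 3.88, 3.87, 1.89, 2.91 and 3.33 in blood, Prim2 4.29, 5.03, 5.48, 5.97 and 5.61 in lung against 4.72, 4.50, 3.38, 4.06 and 4.54 in blood, and Lig1 4.86, 5.49, 5.28, 5.89 and 5.52 in lung against 5.29, 4.98, 3.93, 4.40 and 5.04 in blood. All 3 were highest within their groups on lung 4, intestine 4, liver 5 and graft 3. Rfc5 and Orc6 are the other tested members whose probe holds 4 or more G in a row, and their lung minus blood differences were -0.02 and -0.38. The stretch of each probe around the run is shown, with the run in capitals.
Chaf1a, NM_013733 probe at chr17:56206969-56207028 (mm9), bases 15 to 44: agttgaaagacctGGGGGaaattgacctag
Lig1, NM_010715 probe at chr7:13896609-13896667 (mm9), bases 19 to 48: ctcctgctctcctGGGGcctGGGGtggagg
Rfc5, NM_028128 probe at chr5:117829243-117829302 (mm9), bases 31 to 60: agactgcacacctcacttgttGGGGGGaat
Orc6, NM_019716 probe at chr8:87831769-87831828 (mm9), bases 13 to 42: tgtcctctcacgtGGGGtgaaattgggacc

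The same feature went with the direction of the lung difference across the array. Of 680 tested genes whose probe holds 5 or more G in a row, 97.2% were higher in lung than in blood, with a median log2 difference of 0.92. With a run of 4 the share was 66.5% of 1318 genes and the median 0.47, and with 3 or fewer it was 31.6% of 7515 genes and the median -0.36. The same classes had medians of 0.60, 0.34 and -0.39 for intestine against blood. For day 4 against graft their medians were 0.40, -0.02 and 0.24, and 80.1%, 49.5% and 57.0% of their genes were higher at day 4. Prim2, Rfc5 and Orc6 were called higher in that comparison with probes that hold such a run. The median level of the 680 genes was 5.78 on lung 4, 5.63 on intestine 4, 5.88 on liver 5 and 5.18 on graft 3, each the highest of its group, and 3.42 on blood 3, the lowest of all 24 arrays. Leaving every probe with 4 or more G out of the scaling and the test gave 25 of 30 members higher at day 4 and 21 of 30 lower in intestine than in blood, where 38% of the 7781 genes of that fit were called higher at day 4 and 16.6% lower in intestine. For Prim2 the probe without such a run had means of 1.56 in lung and 1.22 in intestine, against 2.49 in blood.

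**Figure D5:**
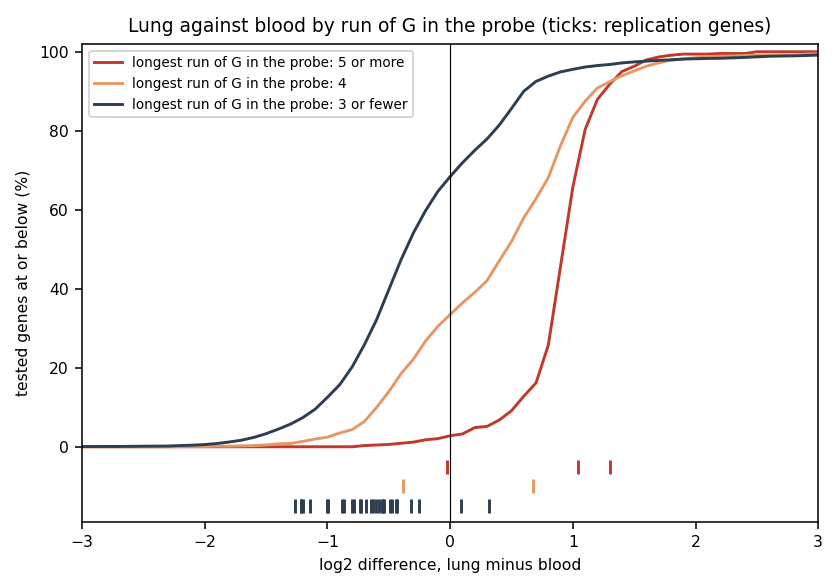
Lines give the share of tested genes (vertical axis, %) whose log2 difference between lung and blood is at or below the value on the horizontal axis, for probes whose longest run of G is 5 or more (680 genes), 4 (1318) or 3 or fewer (7515). Ticks below mark the 34 replication genes in the same colours; 97.2% of genes with 5 or more G lie right of 0, as do Chaf1a and Prim2 of the 3 replication genes in that class, while Rfc5 lies at -0.02; Lig1, Gins2 and Mcm6 also lie right of 0.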

How the data were processed

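RNA of each sample (24 in all) was amplified by 2 rounds of linear amplification, labelled with Cy3 and hybridised to a one-colour Agilent mouse array, per the labels' protocols. Scanner output was made by the authors with Agilent Feature Extraction, version 9.5.1.1 per the file headers and 10.7 per the submitters' processing notes, and holds processed signal intensity for each spot, after the software's background correction. Flags for spots well above background, saturated or not uniform were deposited beside the intensity, and are scores of 0 or 1. A deposited log2 table was found to be quantile-normalised and centred near 0 on each array (column medians -0.03 to 0.028), since it correlated at 0.99977 or more with such values made from the scanner intensity, and was used as an alternative.

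Each processed signal was divided by the 75th percentile of gene probes on its array and turned to log2. Non-uniform spots were left out and spots of a probe averaged. A probe was tested if well above background on all arrays, or all but 1, of at least 1 group, and the tested probe with the highest mean stood for its gene. Probes were named through RefSeq accessions and symbols, and of 39429 gene probes 6158 had no name. A linear model with 1 mean per group was fitted over all 24 arrays with limma 3.58.1 in R 4.3.3 (statmod 1.5.0), with moderated tests of 11 contrasts and an F-test over the 4 sites, each adjusted by Benjamini-Hochberg over 9513 genes. Data of the same size were simulated with independent noise and 100 genes changed by each of 2 amounts. For day 4 against graft, 38% of genes changed by 1 and 88% of those changed by 2 on the log2 scale were called. For intestine against blood it was 27% and 84%. Far fewer genes were changed there than were called in either real comparison, so these shares do not describe the power of those comparisons.

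The members and the lists of other genes were chosen with earlier results of these data known. Values on single arrays are given for the 2 members with the smallest adjusted p in each functional group, every member called lower or not called, up to 3 members for a pair of sites and up to 5 for the F-test, members above background on no array of a group, and members whose probes disagree in sign. From each list of other genes, up to 3 called genes with the smallest adjusted p and up to 2 called against the majority are given. Alternatives changed the background correction, scaling, filter, choice of probe, array weights, slide, replicate number and single arrays. Among them, 3 were chosen after the data were seen, namely leaving out probes with 4 or more G in a row with each of 2 scalings, and centring on Cd3 genes.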

Additional observations from a re-analysis of the deposited data

Results flagged for a closer look

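In 8 of 175 groups of 4 or 5 arrays, 1 array stood apart from the others by a gap that Dixon's criterion marks, and chance alone would mark about 1 group in 20. On lung 4, Gmnn read -0.38 where the other lung arrays read 1.26 to 1.92, Pcna 3.96 against 4.79 to 5.02 on the others, and Rfc4 3.74 against 4.62 to 4.75. On intestine 4, Mcm2 read -1.24 against 1.31 to 2.26 on the other intestine arrays, and Pole 1.39 against 2.20 to 2.46. Gmnn also stood apart on blood 1, at 1.89 where the other blood arrays read 2.42 to 2.61. In the graft, Mcm5 read 1.66 on graft 2 and 1.01 to 1.09 on the others, and Gins4 0.18 on graft 3 and -0.18 to -0.15 on the others. All 5 of the values on lung 4 and intestine 4 were low ones.

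The 17 members with a limma call between intestine and blood had these log2 differences, intestine minus blood. Among origin and licensing genes they were -1.44 for Orc3, -0.76 for Cdt1 and -1.96 for Gmnn. For helicase genes they were -1.87 for Mcm2, -0.98 for Mcm3, -1.10 for Mcm7, -1.30 for Gins1 and -1.71 for Mcm10. For polymerases they were -1.42 for Pola1, -1.27 for Pold1 and -1.32 for Pole. The clamp loader subunit Rfc4 had -0.98, the single-strand binding subunits Rpa1, Rpa2 and Rpa3 had -1.06, -1.21 and -1.07, Fen1 had -0.83 and Chaf1b had -0.92. The value of Rpa2 rests in part on background signal, since it was above background on only 2 of the 5 intestine arrays.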

How the results depend on the processing

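The 27 members called higher at day 4 numbered 20 to 29 under the alternatives and 26 to 28 with 1 array left out. Under the former, 13.3% to 43.6% of all tested genes were called higher. In either direction, 25 of the 29 calls held under every alternative that measured them and 0 reversed. With the median of detected probes as scale, 17 members were called higher in lung and 14 in intestine, against the graft. The 17 calls between intestine and blood became 0 with the 75th percentile or the median of detected probes and 0 when centred on Cd3 genes, 7 with no signal filter, 3 with only the compared groups, 11 without lung 4 and intestine 4, and 8 with the 75th percentile of detected probes without G-run probes. Of all genes tested between intestine and blood, 1.96% were called lower with no signal filter and 5.63% without lung 4 and intestine 4. In the last setting named it was 3.96%. Leaving out 1 array gave 4 (without intestine 2) to 23 (without intestine 5) there, 0 to 13 for intestine against liver, 0 to 7 for lung against blood and 0 to 17 for the F-test. Array weights, whose estimate did not fully converge, gave 27 calls for intestine against liver, 1 for intestine against lung, 1 for lung against blood and 2 for lung against liver, and the slide as a random block gave 1 for lung against blood. The 5 members called by the F-test became 1 with normexp, 3 with the filter on all arrays, 26 with array weights, 11 with the slide as a random block, 3 with the replicate block, and 0 with each of quantile normalisation, the deposited log2 table, both scalings to detected probes, no filter, only the compared groups, the slide as a fixed block, lung 4 and intestine 4 left out, G-run probes left out of the 75th percentile of detected probes, and Cd3 centring. The cause of these shifts was not tested. The labels do not say that replicate numbers pair samples, and for day 4 arrays the number goes with the slide, whose consensus correlation was 0.105. Deviations correlated from -0.367 to 0.566 over 30 day 4 pairs, of which 18 were over 0.1 and 9 best with their own number, and from -0.41 to 0.262 over 16 graft pairs, and the replicate block gave 26 members higher at day 4 and 18 lower in intestine than in blood. Signal over background limits the 10 untested members.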
